A study of Homo sapiens with 13 samples.

Results

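The accessible chromatin of 10 receptor tyrosine kinase genes of glioma was described in T98G, a cell line grown from a human glioblastoma: EGFR, ERBB2, PDGFRA, PDGFRB, FGFR1, FGFR2, MET, AXL, IGF1R and EPHA2. A peak belonged to a gene when it overlapped the gene body or the 25 kb on either side of it (GENCODE release 44 on hg19), which gave 109 of the 129347 peaks of the deposited ATAC-seq table. ATAC-seq cuts open DNA with the Tn5 transposase, so reads gather where chromatin is accessible. The series compared 3 libraries of G1 cells with 3 libraries of M-phase cells. G1 was reached by 72 h without serum. M-phase cells had 48 h without serum and were then released for 36 h into medium with nocodazole, which blocks spindle assembly, before rounded mitotic cells were shaken off. The cells carried no other treatment or engineered allele, and all came from this single line. G1 libraries were run on the HiSeq, whereas each M-phase replicate had a HiSeq and a NextSeq run. Phase, serum release, nocodazole, shake-off and sequencing platform therefore changed together and cannot be told apart. The same holds for the read depth given below. The labels do not say whether replicates were separate cultures, so p-values measure the spread between libraries, which may be technical.

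Receptor tyrosine kinases span the plasma membrane, bind growth factors outside the cell and phosphorylate each other and their docking proteins inside it, which switches on the RAS-MAP kinase, PI3K-AKT and STAT routes. In glioblastoma, EGFR and PDGFRA are the receptors best known for amplification and mutation, while MET, AXL, FGFR1, IGF1R and EPHA2 are known for supporting growth and invasion. A peak over a transcript start (TSS) marks an accessible promoter, and peaks within introns or between genes often lie over enhancers.

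Summed over all peaks, the libraries held 4191845 to 5092426 scaled counts in G1 and 5475345 to 6000423 in M-phase, a log2 ratio of mean totals of 0.35. From the size of the steps between low values, an estimated 4334544 to 5364983 reads lay in peaks in G1 libraries and 12470551 to 14203089 in M-phase libraries, so G1 values carry more counting error. Of 8 glioma markers, VIM, CD44, OLIG2 and SOX2 had a peak over a TSS, and GFAP, the astrocyte filament gene, NES, S100B and AQP4 had none. The TSS peaks of this list summed to 490 to 594 in G1 libraries and 1219 to 1531 in M-phase libraries, mostly through VIM, the vimentin gene, whose mean was 272 in G1 and 961 in M-phase. OLIG2 and the main CD44 promoter were not called (0.34 ± 0.22 and 0.42 ± 0.19, limma adjusted p = 0.27 and 0.0999), and SOX2, with means of 11.6 and 7.7, was not tested. Another CD44 start, shared with CD44-AS1, was called higher (1.59 ± 0.25, limma adjusted p = 2.18e-07). Of 12 markers of other cell types, 10 had no TSS peak, among them PTPRC, CD3E, PECAM1 and ALB. The 3 peaks of the other 2, EPCAM and SNAP25, summed to 530 to 654 in G1 and 827 to 896 in M-phase. Of these, a SNAP25 peak was called higher (0.84 ± 0.16, limma adjusted p = 2.67e-05, and 0.07 without a call under the trended loess fit explained below), and EPCAM and the other SNAP25 peak were not called (0.24 and 0.04). The part of either list in the results was not tested.

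Most peaks of the receptor genes were not called between phases. Those called higher in M-phase were mostly promoters and strong intronic sites, as in EGFR and AXL, and those called lower were a PDGFRA site and weak sites of IGF1R and AXL. Changes are M-phase over G1 on the log2(scaled count + 8) scale, where weak peaks show less than their true fold, and a peak was called when its limma adjusted p (Benjamini-Hochberg, over all 73121 tested peaks) was under 0.05. Of the 109 peaks, 89 passed the filter on low values, 25 were called higher in M-phase, 5 lower and 59 neither. In the deposited data as a whole, 14.3% of tested peaks were higher and 13.1% lower. All M-phase libraries lay above all G1 libraries at 28 of the 89 peaks and below them at 11, against 19.7% and 18.6% of all tested peaks. The split depended on the scaling: with equal totals in peaks, which moved the median change of all peaks by -0.26 from 0.02, 15 peaks were higher and 15 lower, and a trended loess fit, which sets the typical change to 0 at each level of abundance, gave 17 and 8. Leaving out M-phase replicate 1 left 1 lower peak and leaving out G1 replicate 3 left 2. A value averages over all cells of a library, so a site open in fewer cells and a site less open in each cell cannot be told apart.

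The 17 peaks over the receptors' own TSSs belonged to 8 genes, and PDGFRA and FGFR2 had none. Of these peaks, 11 were higher in M-phase, 0 were lower and 6 were not called. Among all tested TSS peaks 43.2% were higher and 5.94% lower. The median log2 change was 0.68, against 0.39 for all TSS peaks. At the canonical starts alone, 4 of 8 peaks were higher, with a median of 0.37, and 4 of the 11 calls were of IGF1R. Peaks of the same gene are not independent. ATAC-seq keeps no strand, so a peak over starts of a pair of genes cannot be given to either of them. With equal totals 5 of the 17 were higher and 2 lower, with a median of 0.34, where 29.3% of all TSS peaks were higher and 17.2% lower, with a median of 0.07, so that the share of higher calls was that of the table. The trended loess fit gave 6 and 1, with a median of 0.13, against 21.3%, 17% and 0.06. Without G1 replicate 1, 7 were called higher. All 5 peaks over TSSs of neighbouring genes passed the filter, 4 of them were higher and 0 lower, with values at the genes below.

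**Figure D1:**
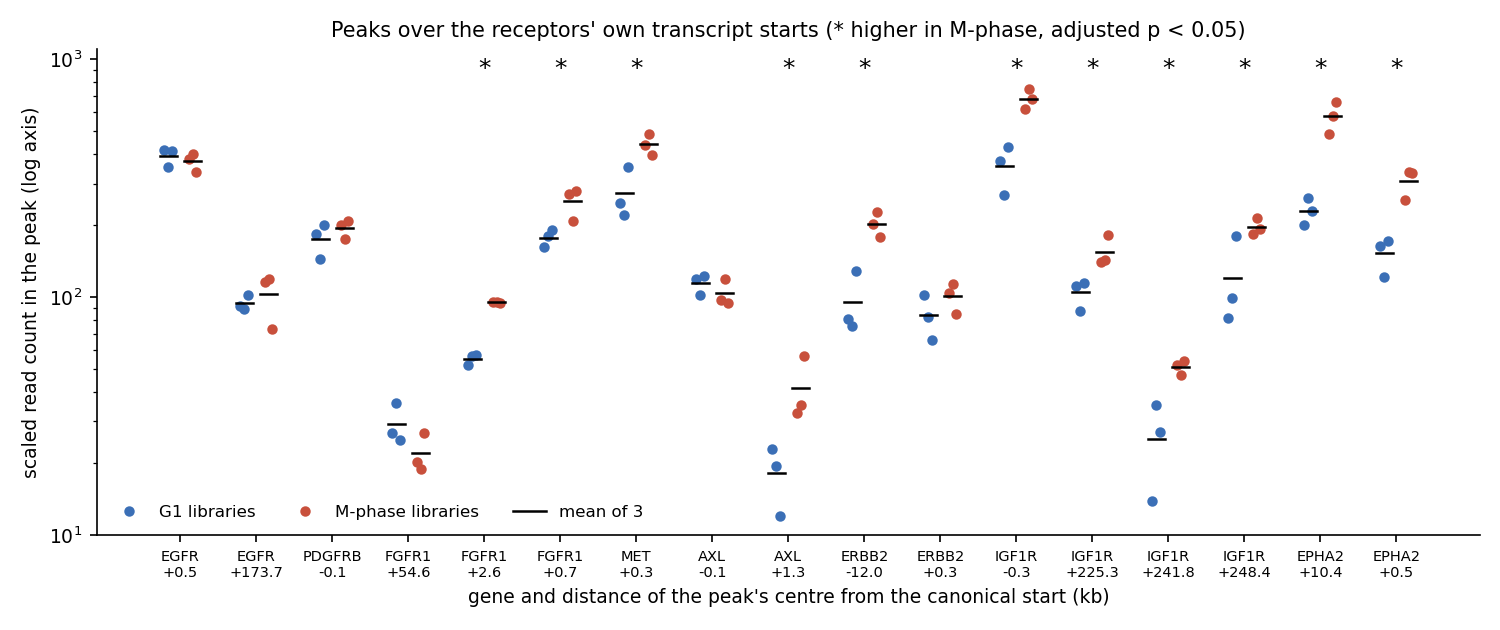
Scaled read count (log axis) in each of the 17 peaks over a TSS of a receptor gene, with 1 point per G1 (blue) or M-phase (red) library, bars at the mean of 3 libraries, and the distance of the peak's centre from the canonical start in kb under each gene name. Stars mark the 11 peaks called higher in M-phase, of which FGFR1 +0.7 and MET +0.3 turned to slight falls under the trended loess fit; the EGFR, PDGFRB, AXL and ERBB2 peaks at the canonical start have overlapping phases.

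The 87 peaks away from any TSS comprised 62 within the gene bodies and 25 in the flanks, and 67 of them were tested. Of these, 10 were higher and 5 lower, where 6.51% of all tested non-TSS peaks were higher and 15% lower. Their median log2 change was 0.12, against -0.05 for all non-TSS peaks, and with equal totals it was -0.17, with 6 higher and 13 lower, against -0.30, 3.12% and 26.8% in the table. The trended loess fit gave 7 higher and 7 lower, with a median of 0.07, against 8.01%, 12.2% and 0.02. At a mean of at least 50 scaled counts, 8 of 23 peaks were higher and 0 lower. Of all non-TSS peaks above that threshold, 20% were higher and 21.7% lower. These sets differ in strength, with a median of the means of 118 for the receptors and 75.2 in the table. Their median widths were 1171 and 937 bp. Among these strong peaks, EGFR at 114.5 kb and PDGFRB at 16.6 and 11.9 kb lost their calls under the trended loess fit. That fit called MET at 44.7 kb, ERBB2 at 54.3 kb and IGF1R at 204.0 kb lower. With equal totals both PDGFRB calls and that of IGF1R at 1.5 kb were lost, and MET at 44.7 kb was called lower. Shares of all peaks at this level were not computed under these fits. At a mean under 20, 0 of 26 tested peaks were higher and 3 were lower, against 3.14% and 11.4% in the table. The 10 higher peaks had a median width of 1194 bp and the 5 lower ones of 206 bp, where all non-TSS peaks called higher and lower had 619 and 409 bp.

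**Figure D2:**
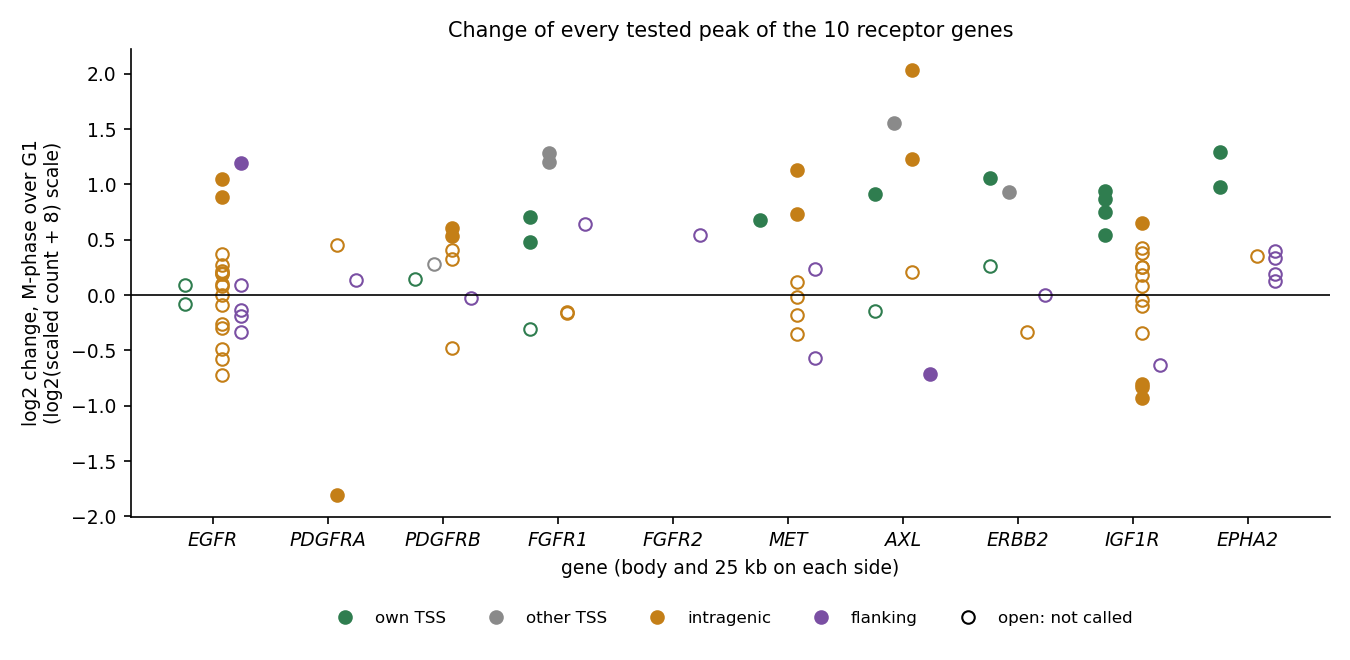
Log2 change, M-phase over G1, of all 89 tested peaks by gene, coloured by position (own TSS, TSS of another gene, intragenic, flanking) and filled where called. The called changes run from -1.81 in PDGFRA to 2.03 in AXL; under the trended loess fit the calls of PDGFRB +16.6, PDGFRB +11.9, FGFR1 +0.7 and MET +0.3 turned to small falls that were not called.

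EGFR, the receptor of epidermal growth factor, had the most peaks of the 10 genes, 29 over its 242.6 kb region, or 12 per 100 kb against 7.03 for the 10 regions together. Its promoter peak was not called between phases, and 2 strong sites within its long first intron were higher in M-phase. The canonical TSS peak (chr7:55086277-55088074) held 415.6, 351.6 and 412 scaled counts in the G1 libraries and 379.8, 398.0 and 336.3 in the M-phase libraries. The phases overlapped, with a log2 change of -0.08 ± 0.17 (SE, limma adjusted p = 0.779), and the peak was called lower with equal totals and with the trended loess fit. A further EGFR start 173.7 kb into the gene, over exon 22 of the canonical transcript, overlapped as well (0.09 ± 0.21, limma adjusted p = 0.803).

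Intron 1 of EGFR held 13 of its 20 intragenic peaks, and both called intragenic peaks lay there. At 46.8 kb from the start (chr7:55132585-55134396) the G1 libraries had 113.3, 136.7 and 217 scaled counts and the M-phase libraries 277.7, 335.4 and 352.2. Every M-phase library exceeded every G1 library, and the log2 change was 1.05 ± 0.19 (limma adjusted p = 6.3e-06). The strongest EGFR peak by its mean over all libraries, at 114.5 kb (chr7:55200388-55202073), had 297.3, 285.2 and 418 in G1 and 580.4, 552.5 and 725.1 in M-phase. It rose by 0.89 ± 0.17 (limma adjusted p = 1.31e-05), a call lost with the trended loess fit, and in M-phase its mean of 619 exceeded that of the promoter peak, 371. Other strong sites of the same intron, at 54.8 and 67.7 kb, had log2 changes of 0.19 and -0.09 and were not called. No EGFR peak was called lower, and the nearest to the threshold was an intron 1 site at 29.5 kb with -0.72 ± 0.29 (limma adjusted p = 0.0539).

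Upstream of EGFR, a flanking peak 22.9 kb before the start (chr7:55063438-55064127) had 28.8, 22.7 and 24 scaled counts in G1 and 69.2, 68.4 and 65.4 in M-phase. The phases stood clearly apart, and the change of 1.19 ± 0.25 (limma adjusted p = 8.36e-05) was called under every alternative run. Its central 200 bases (chr7:55063683-55063882, hg19, plus strand) are shown because this was the highest rise in any flank. Capitals mark 2 matches to TGANTCA, the site of AP-1 factors such as FOS and JUN, and 1 match to TGTTTAC, the forkhead site.
EGFR 22.9 kb upstream: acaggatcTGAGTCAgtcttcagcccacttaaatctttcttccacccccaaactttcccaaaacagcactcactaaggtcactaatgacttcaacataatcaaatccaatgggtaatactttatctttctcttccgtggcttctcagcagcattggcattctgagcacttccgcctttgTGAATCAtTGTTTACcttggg

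ERBB2, the EGF receptor family member that has no ligand of its own and pairs with its relatives, had 6 peaks. Its upstream start was called and its canonical start was not. The upstream start, 12 kb before the canonical one and shared with PGAP3 (chr17:37843807-37844816), had 80.5, 75.8 and 129 scaled counts in G1 and 202.3, 226.6 and 179.0 in M-phase, without overlap, and rose by 1.06 ± 0.20 (limma adjusted p = 1.96e-05). The canonical start (chr17:37856136-37857170) had 102.4, 82.8 and 66 in G1 and 104.2, 113.3 and 85.2 in M-phase, with overlap and a change of 0.26 ± 0.22 (limma adjusted p = 0.416). The difference between these changes was not tested. The neighbouring MIEN1 start, at the 3′ end of ERBB2, rose by 0.93 ± 0.20 (limma adjusted p = 0.000141). A flanking peak 54.3 kb downstream, the strongest non-TSS peak of the region, held 161.1, 165.6 and 186 in G1 and 162.3, 167.3 and 184.3 in M-phase, a log2 change of 0.00 that became a called fall of -0.44 under the trended loess fit.

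PDGFRA, the α receptor of platelet-derived growth factor and a marker of oligodendrocyte precursors, was sparsely open, with 4 peaks in 119.0 kb and none over a TSS of GENCODE. The nearest peaks were 1.2 kb upstream and 4.4 kb downstream of the canonical start. The downstream one (chr4:55099118-55100571) covers an alternative RefSeq start and had 118.3, 85.9 and 91 scaled counts in G1 and 127.3, 117.0 and 169.9 in M-phase. The phases overlapped, with a change of 0.45 ± 0.21 that was not called (limma adjusted p = 0.0967). The upstream peak changed by 0.14 ± 0.24 (limma adjusted p = 0.726).

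One PDGFRA site showed the largest fall of all 109 peaks. It lies 52.2 kb into the gene (chr4:55147333-55147976), in intron 16 of the canonical transcript and partly over an exon of another transcript. It had 53.7, 79.7 and 107 scaled counts in G1 and 18.1, 21.0 and 11.1 in M-phase, with every M-phase library below every G1 library. The log2 change was -1.81 ± 0.26 (limma adjusted p = 3.42e-08), and the call held under every alternative run. The part of its centre outside annotated exons (chr4:55147555-55147747, 193 bases, hg19, plus strand) is shown for comparison with the rising sites and holds no match to the 5 motifs searched, hence no capitals.
PDGFRA 52.2 kb downstream of the start: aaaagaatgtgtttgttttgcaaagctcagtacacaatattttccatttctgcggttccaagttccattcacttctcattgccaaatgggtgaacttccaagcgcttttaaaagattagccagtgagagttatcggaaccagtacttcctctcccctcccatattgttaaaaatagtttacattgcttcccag

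PDGFRB, the β receptor, known from pericytes and mesenchymal cells, was more widely open than PDGFRA, with 10 peaks in 92.0 kb. Its TSS peak (chr5:149534991-149535926) had 183.9, 144.5 and 200 scaled counts in G1 and 201.4, 174.7 and 209.3 in M-phase, overlapping, with a change of 0.15 ± 0.19 (limma adjusted p = 0.616). The strongest sites were in intron 1 and held more scaled counts than the promoter peak, over wider peaks. At 16.6 kb from the start (chr5:149517510-149520055) the libraries had 322.1, 370.3 and 370 in G1 and 524.0, 432.6 and 598.6 in M-phase. The phases did not overlap, and the change was 0.53 ± 0.17 (limma adjusted p = 0.00982), but it was -0.27 under the trended loess fit and the call was lost with equal totals, without G1 replicate 1 or without M-phase replicate 3. At 11.9 kb (chr5:149522596-149524346) the values were 229.7, 227.3 and 299 in G1 and 337.0, 440.1 and 388.3 in M-phase. This peak changed by 0.61 ± 0.17 (limma adjusted p = 0.0044), by -0.07 under the trended loess fit, and was not called with equal totals or without M-phase replicate 2. The start of CSF1R, the neighbouring receptor of colony-stimulating factor, overlapped between phases (0.28 ± 0.21, limma adjusted p = 0.351).

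FGFR1, a fibroblast growth factor receptor expressed in glioma, was open at its promoters in both phases and somewhat more in M-phase. The canonical TSS peak (chr8:38324519-38326385) had 162.1, 179.7 and 191 scaled counts in G1 and 272.3, 208.5 and 278.6 in M-phase. Although the libraries did not overlap, the change of 0.48 ± 0.18 (limma adjusted p = 0.0398) was -0.05 under the trended loess fit and lost its call with TMM scaling, with equal totals, without the filter, and without G1 replicate 1, M-phase replicate 1 or M-phase replicate 3. A second start at 2.6 kb (chr8:38323001-38324060) was tightly grouped, with 51.7, 56.3 and 57 in G1 and 95.2, 95.6 and 94.3 in M-phase, and rose by 0.71 ± 0.22 (limma adjusted p = 0.0103), a call lost with equal totals and without M-phase replicate 2. Another FGFR1 start, over coding exons 54.6 kb into the gene, had a mean of 29.2 in G1 and 22.0 in M-phase and was not called. In the same region, the promoters of NSD3, a histone methyltransferase, and LETM2 rose by 1.2 ± 0.17 and 1.28 ± 0.19 (limma adjusted p = 1.1e-08 and 2.98e-08), while none of the 3 non-TSS peaks was called.

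FGFR2, the receptor of the family best known in epithelia, was nearly closed in these cells. Its 170.1 kb region held 3 peaks, none over a TSS, with 10 to 35 scaled counts per G1 library and 25 to 28 per M-phase library in all 3 together. Only the peak 10.9 kb upstream passed the filter, with 6.0, 14.8 and 9 in G1 and 17.3, 21.8 and 14.0 in M-phase (0.54 ± 0.29, limma adjusted p = 0.168).

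MET, the receptor of hepatocyte growth factor, was more open in M-phase at its promoter and at 2 sites in its body. The TSS peak (chr7:116311806-116313391) had 247.5, 221.1 and 353 scaled counts in G1 and 436.7, 482.9 and 394.1 in M-phase. No library overlapped between phases, and the change was 0.68 ± 0.17 (limma adjusted p = 0.0013) but -0.03 under the trended loess fit. A peak over exon 16, 105.0 kb from the start (chr7:116416675-116417845), had 33.8, 43.0 and 41 in G1 and 83.2, 68.8 and 147.7 in M-phase. It rose by 1.13 ± 0.24 (limma adjusted p = 0.000111) under every alternative run, with M-phase replicate 3 well above the other M-phase libraries. In intron 1, a site at 15.9 kb had 20.9, 14.8 and 40 in G1 and 37.9, 34.6 and 66.4 in M-phase. It was called (0.73 ± 0.27, limma adjusted p = 0.0358) although the phases overlapped, and lost its call with TMM scaling, with equal totals, and without G1 replicate 1, G1 replicate 2 or M-phase replicate 3. The strongest intronic MET peak, at 44.7 kb, had 106.4, 108.6 and 156 in G1 and 108.8, 88.2 and 86.6 in M-phase and was not called (-0.35 ± 0.21, limma adjusted p = 0.231), but was called lower with equal totals and with the trended loess fit.

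AXL, a TAM family receptor that binds GAS6 and is known for invasion and drug resistance, showed the largest rise of the 109 peaks, which lay in the gene body and not at the canonical promoter. The TSS peak (chr19:41724702-41725383) had 119.3, 101.6 and 123 scaled counts in G1 and 97.2, 119.5 and 94.8 in M-phase, with overlap and a change of -0.14 ± 0.21 (limma adjusted p = 0.688), which was called as a fall with equal totals. In intron 4, 4.5 kb from the start (chr19:41729319-41729922), the libraries had 52.7, 44.5 and 29 in G1 and 187.0, 224.1 and 168.9 in M-phase. The lowest M-phase library was far above the highest G1 library, the means differed 4.60-fold, and the log2 change was 2.03 ± 0.22 (limma adjusted p = 2.1e-12). Also in intron 4, 6.9 kb from the start (chr19:41731410-41732626), the values were 179.9, 171.9 and 174 in G1 and 360.9, 450.8 and 462.4 in M-phase. This peak, which ends 34 bp before an alternative RefSeq start of AXL, rose by 1.23 ± 0.18 (limma adjusted p = 2.23e-08). Both intron 4 rises were called under every alternative run.

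The central 200 bases of the intron 4 sites (chr19:41729521-41729720 and chr19:41731919-41732118, hg19, plus strand) are shown because they were the largest rises among the non-TSS peaks on the log2(scaled count + 8) scale. By the ratio of means, the second, at 2.42, lay below EGFR 22.9 kb upstream (2.69) and MET at 105.0 kb (2.54). Capitals mark AP-1 matches (TGANTCA), 2 in the first and 1 in the second, and in the first a match to CATTCC, the TEAD site.
AXL 4.5 kb downstream of the start: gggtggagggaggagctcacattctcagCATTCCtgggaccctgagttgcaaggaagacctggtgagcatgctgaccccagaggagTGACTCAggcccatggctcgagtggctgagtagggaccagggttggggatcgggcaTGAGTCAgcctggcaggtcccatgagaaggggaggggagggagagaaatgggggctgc
AXL 6.9 kb downstream of the start: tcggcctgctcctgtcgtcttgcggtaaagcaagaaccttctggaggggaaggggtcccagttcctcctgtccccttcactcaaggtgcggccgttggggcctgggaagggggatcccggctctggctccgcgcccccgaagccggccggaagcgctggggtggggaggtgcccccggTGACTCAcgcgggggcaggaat

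Elsewhere in the AXL region, a short peak over another AXL start at 1.3 kb had 22.9, 19.5 and 12 scaled counts in G1 and 32.5, 35.0 and 56.3 in M-phase. It rose by 0.91 ± 0.28 (limma adjusted p = 0.00834), a call lost with equal totals and without M-phase replicate 3. The promoter of HNRNPUL1, an RNA-binding protein gene just downstream, had 508.0, 375.8 and 385 in G1 and 1171.2, 1278.1 and 1299.2 in M-phase and rose by 1.56 ± 0.15 (limma adjusted p = 4.85e-14). A weak peak 14.7 kb upstream, with 8.9, 13.3 and 14 in G1 and 0.4, 8.7 and 4.8 in M-phase, was at the threshold of a fall (-0.71 ± 0.28, limma adjusted p = 0.0459). Its call was lost with the trended loess fit, without the filter, with a pseudocount of 1, and without G1 replicate 2, G1 replicate 3, M-phase replicate 1 or M-phase replicate 3.

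IGF1R, the receptor of insulin-like growth factors, had 24 peaks over 366.0 kb and combined rising promoters with falling intronic sites. The canonical TSS peak, shared with the antisense gene IRAIN (chr15:99190336-99192645), had 372.8, 268.0 and 428 scaled counts in G1 and 619.6, 750.3 and 676.5 in M-phase. The phases did not overlap, and the change was 0.94 ± 0.16 (limma adjusted p = 3.09e-06), a call lost with the trended loess fit. An intron 1 peak beside it, 1.5 kb from the start, had 43.7, 47.7 and 52 in G1 and 108.8, 67.2 and 67.4 in M-phase (0.65 ± 0.23, limma adjusted p = 0.0295). That call was lost with TMM scaling, with equal totals, and without G1 replicate 1, G1 replicate 2 or M-phase replicate 1.

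All 3 alternative starts of IGF1R with a peak were also called higher. The peak at 248.4 kb, over exon 4 (chr15:99439347-99440943), had 81.5, 99.2 and 180 in G1 and 183.3, 215.1 and 192.5 in M-phase, with a change of 0.75 ± 0.21 (limma adjusted p = 0.00308), lost with equal totals, with the trended loess fit and without G1 replicate 1. At 241.8 kb the values were 13.9, 35.2 and 27 in G1 and 51.9, 47 and 53.9 in M-phase, with a change of 0.87 ± 0.26 (limma adjusted p = 0.0077), lost with equal totals and without G1 replicate 1. The peak at 225.3 kb had 111.3, 87.5 and 115 in G1 and 139.7, 143.4 and 182.8 in M-phase. Its change of 0.54 ± 0.20 (limma adjusted p = 0.0381) was the least stable of the promoter calls, kept by leaving out G1 replicate 3 and lost by leaving out any other library, and lost with TMM scaling, equal totals, the trended loess fit and without the filter. The strongest intronic site of IGF1R, in intron 2 at 204.0 kb, had 308.2, 328.9 and 442 in G1 and 380.2, 426.9 and 474.4 in M-phase. It overlapped and was not called (0.25 ± 0.17, limma adjusted p = 0.281), was called higher without G1 replicate 3, and was called as a fall of -0.51 under the trended loess fit.

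The falls of IGF1R were in weak, short peaks of introns 1 and 2. In intron 1, at 36.1 kb (chr15:99227758-99227963), the libraries had 24.9, 20.3 and 25 scaled counts in G1 and 6.2, 11.9 and 7.7 in M-phase (-0.93 ± 0.29, limma adjusted p = 0.00909), lost without M-phase replicate 1. In intron 2, at 174.8 kb, they had 20.9, 28.9 and 45 in G1 and 9.5, 11.9 and 20.7 in M-phase (-0.83 ± 0.29, limma adjusted p = 0.0222), lost with the trended loess fit and without G1 replicate 3, M-phase replicate 1 or M-phase replicate 2. At 240.5 kb of the same intron they had 13.9, 14.8 and 19 in G1 and 3.7, 3.7 and 10.6 in M-phase (-0.80 ± 0.28, limma adjusted p = 0.0252), lost without the same 3 libraries. In each of these peaks all M-phase libraries lay below all G1 libraries, and none passed a filter of at least 10 in every library.

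**Figure D3:**
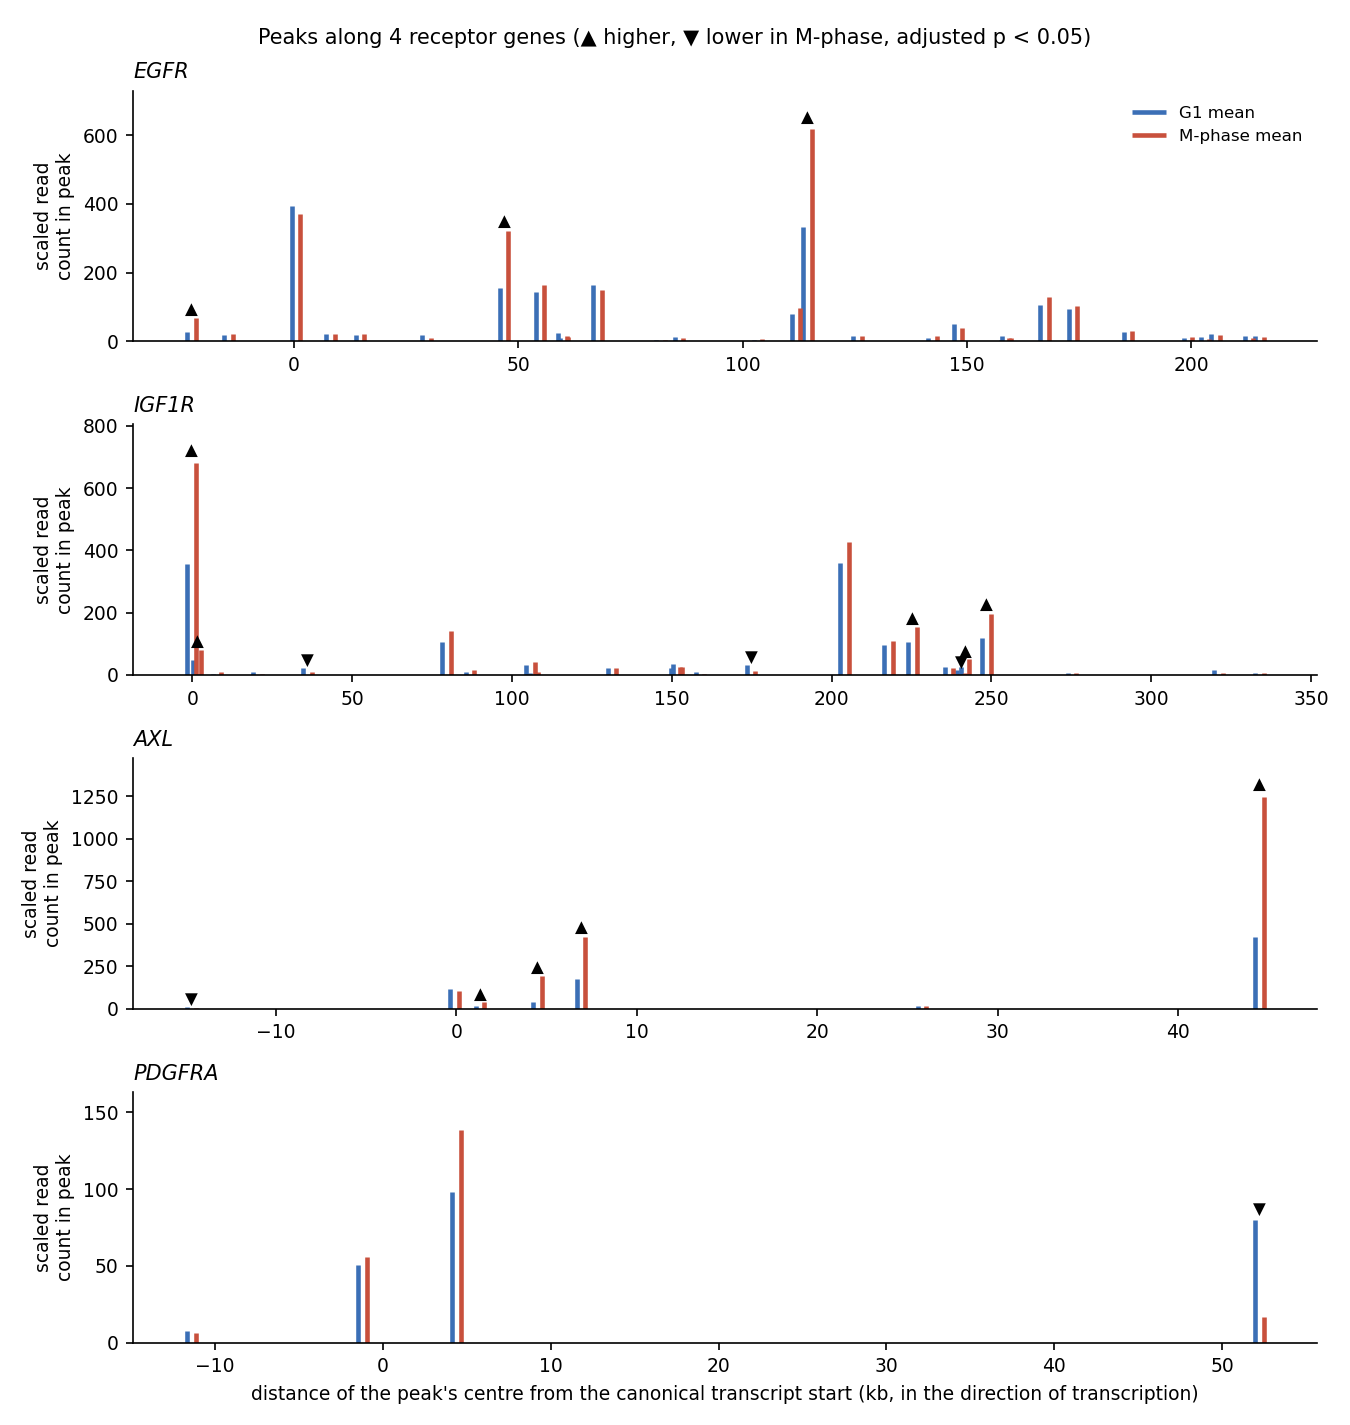
Mean scaled read count (3 libraries) of each peak along EGFR, IGF1R, AXL and PDGFRA in G1 (blue) and M-phase (red), against the distance of its centre from the canonical TSS in kb. Upward and downward triangles mark peaks called higher or lower in M-phase. Called rises include sites within EGFR intron 1 and AXL intron 4, a site upstream of EGFR, and TSS peaks in the IGF1R and AXL regions. Called falls include the PDGFRA site 52.2 kb from its start, and weak sites of IGF1R and AXL.

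At EPHA2, an ephrin-A receptor, both TSS peaks were called higher and none of the 5 other peaks was called. The canonical TSS peak, shared with EPHA2-AS1 (chr1:16481317-16482828), had 164.0, 121.9 and 172 scaled counts in G1 and 256.6, 335.8 and 330.6 in M-phase. It did not overlap between phases and rose by 0.98 ± 0.19 (limma adjusted p = 1.67e-05). The internal start at 10.4 kb, in intron 3 (chr1:16471102-16473264), had 200.8, 260.9 and 229 in G1 and 486.5, 576.0 and 661.6 in M-phase. This was the largest rise at any own TSS, with 1.29 ± 0.17 (limma adjusted p = 2.2e-09). Both were called under every alternative run. The strongest flanking peak, 19.9 kb upstream, held 73.6, 78.1 and 80 in G1 and 87.7, 66.7 and 105.9 in M-phase (0.13 ± 0.22, limma adjusted p = 0.716).

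The 250 bases before the RefSeq starts of EPHA2 (chr1:16156070-16156319, minus strand) and IGF1R (chr15:98648289-98648538, plus strand), both on GRCh38.p14 and written 5′ to 3′ in the direction of transcription, are shown as the canonical promoters with the largest rises. Capitals mark 1 match to GGGCGG, the SP/KLF site, and 1 to CATTCC in EPHA2, and 2 to GGGCGG in IGF1R. Of all 35116 RefSeq promoters of that length, 42.6% held GGGCGG and 11.9% CATTCC.
EPHA2 promoter: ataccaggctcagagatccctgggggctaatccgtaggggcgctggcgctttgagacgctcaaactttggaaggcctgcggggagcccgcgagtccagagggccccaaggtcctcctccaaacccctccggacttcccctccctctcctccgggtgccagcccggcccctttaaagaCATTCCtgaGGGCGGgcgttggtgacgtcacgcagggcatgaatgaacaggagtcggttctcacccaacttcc
IGF1R promoter: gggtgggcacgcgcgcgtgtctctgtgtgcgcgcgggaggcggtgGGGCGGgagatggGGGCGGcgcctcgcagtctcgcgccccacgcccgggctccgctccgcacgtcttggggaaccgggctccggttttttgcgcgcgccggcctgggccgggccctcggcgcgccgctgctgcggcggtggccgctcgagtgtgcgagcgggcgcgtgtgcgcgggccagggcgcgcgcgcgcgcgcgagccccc

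Levels were compared between genes as scaled counts per kb of the peak at the canonical TSS. In G1 the order was EGFR with 219 ± 20.0 (SD, n = 3), PDGFRB 188 ± 30.5, MET 173 ± 44, AXL 168 ± 16.8, IGF1R 154 ± 35.2, EPHA2 101 ± 17.8, FGFR1 95.1 ± 7.80 and ERBB2 80.9 ± 17.6. Neighbours overlapped in their libraries, apart from a gap between IGF1R and EPHA2. In M-phase IGF1R came first with 295 ± 28.4, followed by MET with 276 ± 28.0, PDGFRB 208 ± 19.4, EGFR 207 ± 17.6, EPHA2 203 ± 29.3, AXL 152 ± 20.0, FGFR1 136 ± 20.8 and ERBB2 97.5 ± 13.9. Gaps without overlap lay between MET and PDGFRB and between FGFR1 and ERBB2. Among the 8 genes with a peak at the canonical TSS, ERBB2 had the lowest mean in both phases. In G1 its libraries overlapped those of FGFR1. PDGFRA and FGFR2 had no such peak and are not in this order. The listed RefSeq start of ERBB2 lies in its upstream TSS peak, which had means of 94.16 per kb in G1 and 200.6 in M-phase.

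Summed over a gene's own and non-TSS peaks, leaving out TSS peaks of other genes, the M-phase libraries lay above all G1 libraries for 8 of the 10 receptors. The libraries' totals over all peaks stood apart as well, with 4191845 to 5092426 in G1 and 5475345 to 6000423 in M-phase. The share of all genes whose sums stand apart was not computed. AXL differed most, with 377 ± 14.4 in G1 and 786 ± 85.2 in M-phase (log2 ratio of means 1.06), followed by EPHA2 with 577 ± 37.7 and 1129 ± 162 (0.97). Ratios of the others that stood apart ran from 0.35 at EGFR to 0.47 at IGF1R, close to the ratio of 0.35 of the libraries' total counts in peaks. PDGFRA, with 237 ± 15.9 and 217 ± 29.8, and FGFR2 overlapped. The share of a gene's sum lying over its own TSSs fell from 35.2% to 18.5% at AXL and from 26.9% to 20.5% at EGFR, and rose from 47.3% to 61% at ERBB2, 66.3% to 78.1% at EPHA2, 40.6% to 52.3% at IGF1R, 46.5% to 55% at MET and 84.9% to 87.9% at FGFR1. At PDGFRB it fell from 18.2% to 14.8%.

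**Figure D4:**
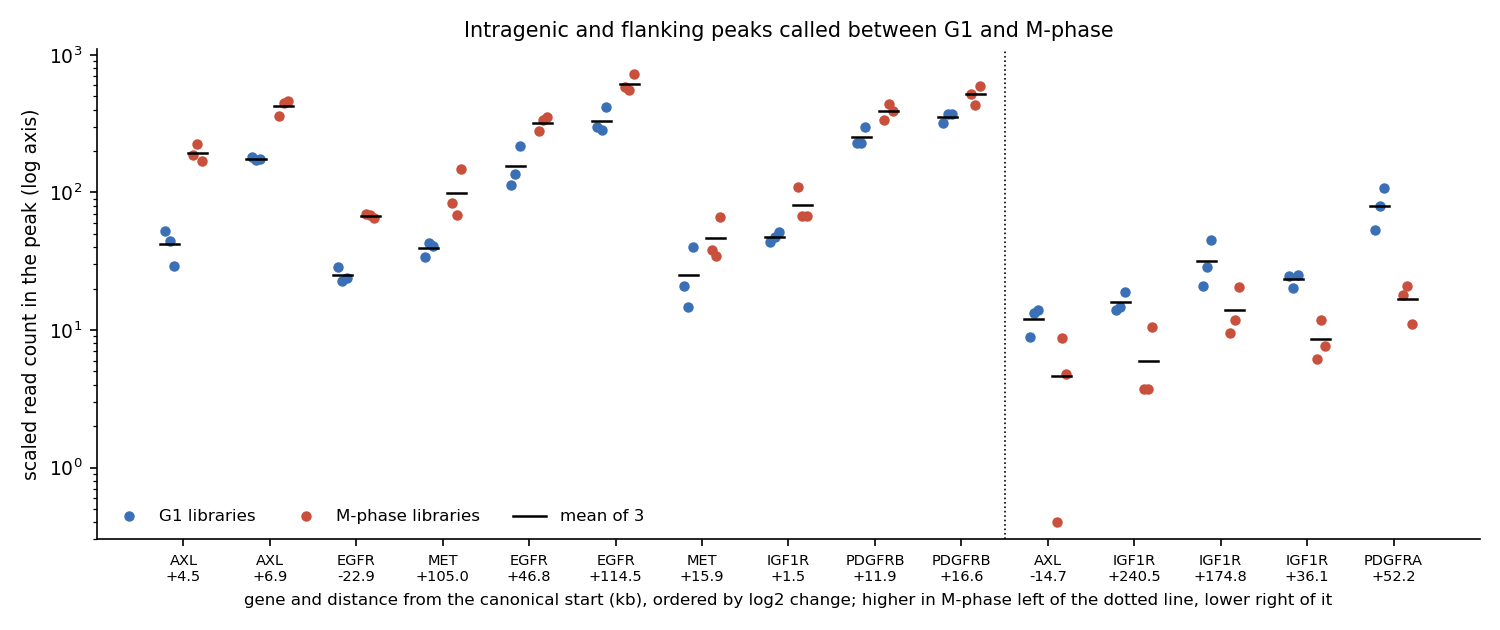
Scaled read count (log axis) per library in the 10 non-TSS peaks called higher (left of the dotted line) and the 5 called lower in M-phase, ordered by log2 change, with bars at the mean of 3 libraries. The PDGFRB peaks turned to slight falls under the trended loess fit; the lower peaks, apart from PDGFRA +52.2, have G1 means of 12.1 to 31.6.

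The sequence letters of the called sites were compared over the central 200 bases of each peak, on both strands. TGANTCA occurred in 6 of the 10 higher non-TSS peaks (EGFR 22.9 kb upstream and 46.8 kb downstream, MET 15.9 and 105.0 kb, AXL 4.5 and 6.9 kb), in 1 of the 5 lower ones, and in 14 of all 87 non-TSS peaks of the receptors. In the whole table it occurred in 12.9% of non-TSS peaks, 30.5% of those called higher and 20.5% of those called lower. TGTGGT, the RUNX site, was in 0 of the 10 higher and 1 of the 5 lower peaks. In the table it was in 17% of all non-TSS peaks, 15.1% of those called higher and 24.7% of those called lower. CATTCC was in 2 of the 10 higher and 1 of the 5 lower peaks, against 13%, 13.9% and 19.9% in the same sets of the table. TGTTTAC was in 1 and 0, against 3.07%, 2.8% and 6.47%. GGGCGG was held by 9 of the 17 own TSS peaks, as by 49.1% of all TSS peaks. A match describes the letters of the window and is not a bound site.

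Base composition was compared by position. Own TSS peaks had a median GC content of 61.5% and 44.6 CpG per kb, where all TSS peaks had 62.5% and 69.2, and the canonical ones had 68% and 79.2. The non-TSS peaks had 54.5% and 17.2, against 49.4% and 10.3 in the table. The alternative IGF1R starts at 225.3, 241.8 and 248.4 kb, with 42.9 to 45.3% GC and 10.6 to 17.4 CpG per kb, resembled non-TSS peaks in composition, whereas the IGF1R canonical peak had 73.2% and 128.

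The TSS peaks of 75 other genes of the pathway were counted by role, and 66 of the genes had such a peak. Of 79 tested peaks, 39 were higher in M-phase and 8 lower, with a median log2 change of 0.45, against 43.2% higher, 5.94% lower and 0.39 for all TSS peaks. The 24 adaptors and relays, which carry the signal inward from the receptors, had 23 of 31 peaks higher and 3 lower, with a median of 0.68. GRB2, the adaptor that brings SOS to the receptor, had 152.1, 163.3 and 157 scaled counts in G1 and 553.7, 604.0 and 630.8 in M-phase at its strongest-changing start, far apart (1.87 ± 0.17, limma adjusted p = 3e-15). SHC1, another adaptor, rose by 1.59 ± 0.15 at the start it shares with CKS1B (limma adjusted p = 4.19e-15). An internal start of PIK3CA, the PI3K catalytic subunit, fell (-1.33 ± 0.29, limma adjusted p = 0.000147) while its main promoter rose (0.65 ± 0.16, limma adjusted p = 0.000647). The difference between these changes was not tested. Under the trended loess fit, 8 peaks of the adaptors and relays were higher and 5 lower, with a median of 0.14.

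Among 16 negative feedback genes, 12 of 20 TSS peaks were higher and 1 lower, with a median of 0.76, beside the same shares of 43.2% and 5.94% in the table. DUSP5, an ERK phosphatase, had 213.7, 152.3 and 253 in G1 and 550.8, 523.7 and 750.6 in M-phase, without overlap, and rose by 1.53 ± 0.18 (limma adjusted p = 2.12e-11). An internal start of LRIG3 fell (-1.05 ± 0.24, limma adjusted p = 0.000361), while its other start rose (0.75 ± 0.19, limma adjusted p = 0.00151). The difference between these changes was not tested. Under the trended loess fit, 7 peaks of the negative feedback genes were higher and 7 lower, with a median of 0.14. Of 15 ligand peaks 3 were higher and 2 lower, with a median of 0.13 against 0.39 for all TSS peaks, and 6 of 19 ligand genes, among them HGF, IGF1 and PDGFB, had no TSS peak. PDGFA changed by 0.82 ± 0.15 (limma adjusted p = 9.25e-06), but by -0.13 under the trended loess fit, while an internal EFNA5 start and FGF1 fell (-1.09 and -1.07, limma adjusted p = 0.000141 and 0.000675). The other EFNA5 start was called higher (0.46 ± 0.16, limma adjusted p = 0.0203). That call was lost under the trended loess fit, which called 0 of the 15 ligand peaks higher.

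Of 13 tested peaks of 16 other receptors, 1 was higher and 2 lower, with a median of -0.13, against 43.2%, 5.94% and 0.39 for all TSS peaks. KIT, the stem cell factor receptor, had 76.6, 75.0 and 109 in G1 and 40.8, 46.6 and 39.9 in M-phase (-0.90 ± 0.23, limma adjusted p = 0.00174). MERTK and TYRO3, the TAM relatives of AXL, changed by -0.68 ± 0.21 and 0.52 ± 0.18 (limma adjusted p = 0.0107 and 0.0189). The MERTK call was lost without M-phase replicate 2. The TYRO3 call was lost with TMM scaling, equal totals, and without G1 replicate 2, M-phase replicate 2 or M-phase replicate 3, and its change was -0.08 under the trended loess fit. Under that fit the counts of higher and lower peaks were 8 and 5 for adaptors and relays, 7 and 7 for negative feedback, 0 and 5 for ligands and 0 and 4 for other receptors. With equal totals they were 15 and 3, 10 and 3, 1 and 5, and 0 and 5. All TSS peaks had 21.3% higher and 17% lower under the trended loess fit, and 29.3% and 17.2% with equal totals.

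**Figure D5:**
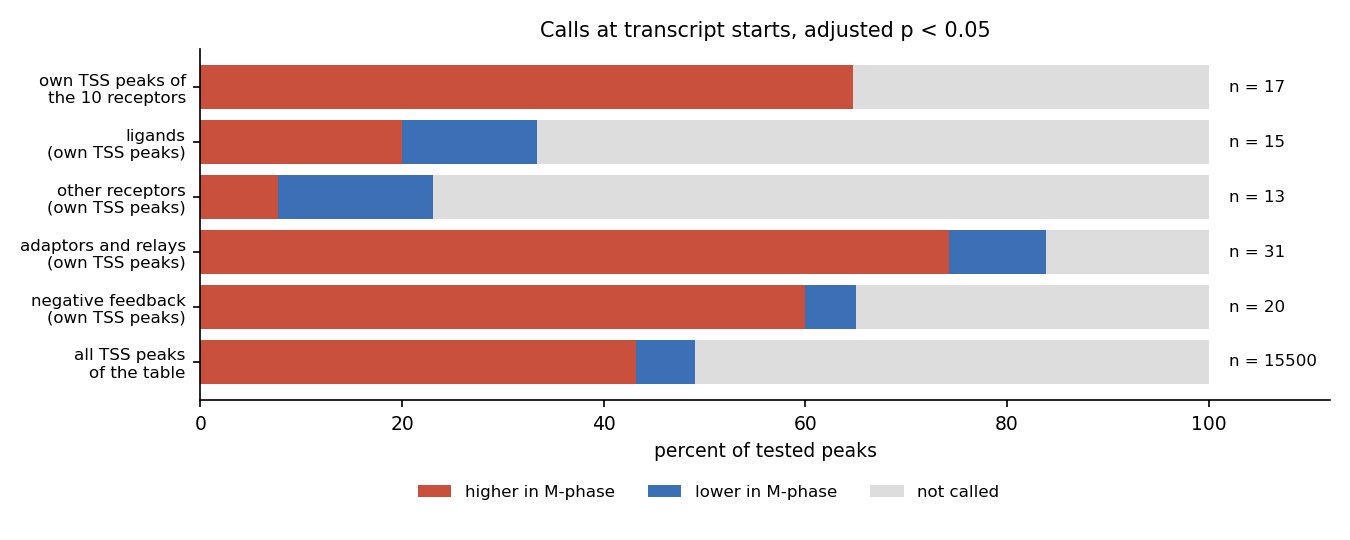
Percent of tested TSS peaks called higher (red), lower (blue) or not called (grey) for the 10 receptors, the 4 lists of pathway genes and all TSS peaks, with the number tested at the right. The bars run from 1 of 13 higher for other receptors to 23 of 31 for adaptors and relays, with 43.2% in the whole table; under the trended loess fit higher and lower calls were equal for negative feedback, and lower calls outnumbered higher ones for ligands.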

How the data were processed

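ATAC-seq was analysed in 3 G1 and 3 M-phase libraries of T98G cells. According to the methods, the authors trimmed adapters with cutadapt, mapped reads to hg19 with Bowtie, discarded mitochondrial reads (SAMtools), and ran MACS2 for broad peaks on pooled replicates of each phase before joining the phases' peaks. Tool versions are not given in the sources used here. The deposited signal values are read counts per peak, scaled by the authors to the library with fewest reads and rounded to 0.1. How the runs of an M-phase replicate were joined is not stated. Columns with the authors' own log2 change and its SD were not used. The number of unused columns of per-sample values was 0, and 0 pairs of libraries were identical. The chromatin fraction and input samples were not analysed here.

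Peaks were kept when at least 3 libraries reached the equivalent of 10 in a library of median size and the total was at least 15. A linear model with a mean-variance trend (limma 3.58.1, R 4.3.3, Benjamini-Hochberg adjustment) was fitted to log2(scaled count + 8) of all 73121 remaining peaks, with no covariate and no further scaling. A count model had been planned for unscaled whole counts and was not run, because the values are scaled. The fit was tested on simulated data. Own TSS peaks overlap a transcript start of the gene, other TSS peaks that of another gene. Figures and tables were made with Python 3.11.15. The members, lists and rules were chosen with earlier results of these data known. The rule named each own TSS peak with a mean of at least 50, the 2 largest called rises and falls among a gene's other peaks and its strongest other peak. The AXL peaks at 1.3 and 6.9 kb, the IGF1R peaks at 240.5 and 241.8 kb, the FGFR1 start at 54.6 kb, the other peaks named as not called and the pathway genes were named after their values were seen. A gene of the negative feedback list enters its counts but is not reported here by itself.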

Additional observations from a re-analysis of the deposited data

How the results depend on the processing

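The counts with equal totals in peaks, the trended loess fit and the left-out libraries that changed a call stand in the report. Over the table, 19987 peaks were called (10439 higher, 9548 lower). Equal totals gave 6341 higher and 18090 lower, and the median change of all peaks was -0.24 (-0.08 with TMM scaling, against 0.02). Relative to that median, the own TSS median was 0.66 as reported, 0.63 with TMM scaling, 0.57 with equal totals and 0.10 with the trended loess fit. For the receptors, TMM scaling gave 21 higher and 8 lower peaks, 8 lower non-TSS peaks and a non-TSS median of 0.01. At least 10 in every library left 1 lower member peak, 1 lower non-TSS peak and 5001 lower peaks in the table, with fewer weak peaks tested. Equal totals gave 15 higher and 15 lower peaks, 5 higher and 2 lower at own TSSs (median 0.34), and 6 higher and 13 lower elsewhere (median -0.17). The trended loess fit gave 8 lower peaks, 6 higher and 1 lower at own TSSs (median 0.13), and 7 higher and 7 lower at non-TSS peaks (median 0.07). A TSS window of 1 kb gave an own TSS median of 0.51.

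Leaving out each library in turn gave 18 to 29 higher and 1 to 6 lower member peaks, 7 to 11 higher own TSS peaks, 7 to 14 higher and 1 to 6 lower non-TSS peaks, own TSS medians of 0.55 to 0.73 and non-TSS medians of 0.04 to 0.16. Lower non-TSS peaks numbered 2 without G1 replicate 3 and 1 without M-phase replicate 1, and higher own TSS peaks 7 without G1 replicate 1. Signs turned under the trended loess fit at several peaks called in either fit. Among named receptor peaks these were PDGFRB at 16.6 kb (-0.27) and 11.9 kb (-0.07), FGFR1 (-0.05), MET (-0.03), ERBB2 at 54.3 kb (-0.44) and IGF1R at 204.0 kb (-0.51). Among pathway peaks PDGFA (-0.13) and TYRO3 (-0.08) turned, and others are not listed. Uncalled peaks turned sign with equal totals at EGFR 173.7 kb (-0.23), the PDGFRB TSS (-0.19), the ERBB2 canonical TSS (-0.07), ERBB2 54.3 kb (-0.33), IGF1R 204.0 kb (-0.09) and EPHA2 19.9 kb upstream (-0.19), and some of them under other fits. Of the 30 called member peaks, 13 kept their call in every alternative fit that tested them and 16 in all 6 fits without a library. Causes were not tested. Replicate numbers did not pair the libraries (correlation of deviations 0.0059, -0.0101 and 0.0284), and the replicate block gave 25 higher and 6 lower member peaks and 20944 calls, and lost none of the 30 calls. The gene body alone, 50 kb flanks, a pseudocount of 1, no filter and leaving out EGFR kept all counts of member peaks within 1.5 times. The edgeR fit planned for unscaled whole counts was not run, because the deposited values are scaled and rounded to 0.1.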
